A study of Mus musculus with 2 samples.

Results

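The genes of 10 neutrophil granule proteins were followed on arrays of sorted long-term haematopoietic stem cells (LT-HSC) from mice lacking WASH and from control mice. The members were chosen by the gene name that the array files give to each sequence: the primary granule genes Mpo, Elane, Prtn3 and Ctsg, the secondary granule genes Ltf, Camp, Ngp and Lcn2, and the tertiary granule genes Mmp8 and Mmp9. Each had 1 sequence, so the set held 10 of the 24171 named genes and 10 of the 44170 sequences measured. The control was labelled wild type and the other group knock out, both of strain C57/BL6. LT-HSC are the marrow cells that can rebuild blood over a long time, and WASH is a protein that starts branched actin filaments on endosomes. Marrow came from femurs and the cells were purified by flow cytometry. Each genotype was represented by 1 array, so 2 arrays were compared. The age of the mice, how many were pooled and how the gene was deleted are not given in the sources used here.

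Neutrophil granules are filled one class after another while the cell matures. Primary (azurophil) granules form first, in promyelocytes, and carry myeloperoxidase and serine proteases. Secondary (specific) granules form in myelocytes and carry antimicrobial and iron-binding proteins, and tertiary (gelatinase) granules form last and carry matrix proteases. Transcripts of the primary class are also found in early myeloid progenitors, while those of the secondary class are a mark of maturing neutrophils rather than of stem cells.

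All 10 granule genes had a lower intensity in the knockout than in the control, with a median log2 difference (knockout minus control) of -0.82, a 1.76-fold lower level. Over all named genes, 48.3% were lower by any amount. Lcn2 and Ngp were more than 2-fold lower (2 of 10, against 6.42% of all genes), no member was 2-fold higher (5.94% of all genes), and 7 of 10 were at least 1.5-fold lower (17.1% of all genes). The secondary class had the lowest median, -1.30, followed by the tertiary class at -0.77 and the primary class at -0.41. With 1 array per genotype there is no spread between animals and no test, so these are differences between 2 arrays. In a sorted population measured in bulk, fewer cells of a type and less RNA per cell cannot be told apart.

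Intensities are on the linear scale of the deposited values. Their floor can be read from 5000 probes of random sequence, which gave 71.3 for the control and 75.7 for the knockout. The array medians were 137 on both. A gene was taken as detected when it exceeded the median intensity of the array in at least 1 of the samples, which held for 16245 genes and for 8 of the 10 members; Elane and Prtn3 did not reach it. The median difference of all detected genes was 0.03. Washc1, which encodes WASH, was at 119 and 107 with its single sequence and was not detected, and no source says whether the deletion covers its probes, so it does not check the genotype labels.

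Among the primary granule genes, Mpo, whose product myeloperoxidase makes hypochlorous acid from hydrogen peroxide, read 1352 in the control against 704 in the knockout, differing by -0.94 on the log2 scale (chr11:87608038-87617914, build MM9). Ctsg, which encodes the serine protease cathepsin G, was at 1959 and 1734, a difference of -0.18 (chr14:56718753-56721326). Ctsg exceeded percentile 95 on both arrays and Mpo on the control array alone. Elane, the gene of neutrophil elastase, was at 131 and 88.1 (-0.57; chr10:79348991-79350881). Prtn3, the gene of proteinase 3, was at 128 and 108 (-0.24; chr10:79342418-79345723). Elane and Prtn3 lie 3.27 kb apart and were both near the floor, with 1.84 and 1.80 times the random-probe signal in the control and 1.16 and 1.43 times in the knockout, so their differences rest on little signal.

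Each of the 4 secondary granule genes was lower by at least 1.5-fold. Ngp, a cathelicidin-related granule protein gene, went from 23754 to 7586, a difference of -1.65 or 3.13-fold (chr9:110322352-110324987). Lcn2, whose product lipocalin-2 binds the siderophores with which bacteria collect iron, went from 10846 to 3448, also -1.65 or 3.15-fold (chr2:32240184-32243259). These were the largest differences in the set. Ltf, the gene of the iron-binding protein lactoferrin, was at 17887 and 9296, a difference of -0.94 (chr9:110921812-110944817). Camp, which encodes the antimicrobial peptide cathelicidin, was at 2731 and 1612 (-0.76; chr9:109749924-109751967). All 4 kept a signal far above the floor on the knockout array, from 21.3 times the random-probe signal for Camp to 123 times for Ltf. Secondary granule transcripts were thus read clearly in both sorted samples.

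The tertiary granule genes differed by less than Ngp and Lcn2. Mmp8, the neutrophil collagenase gene, read 903 in the control against 494 in the knockout (-0.87; chr9:7558447-7568030). Mmp9, the gelatinase B gene, was at 266 and 168, a difference of -0.67 (chr2:164773750-164781346). Mmp9 was the dimmest detected member, with 2.21 times the random-probe signal in the knockout.

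**Figure D1:**
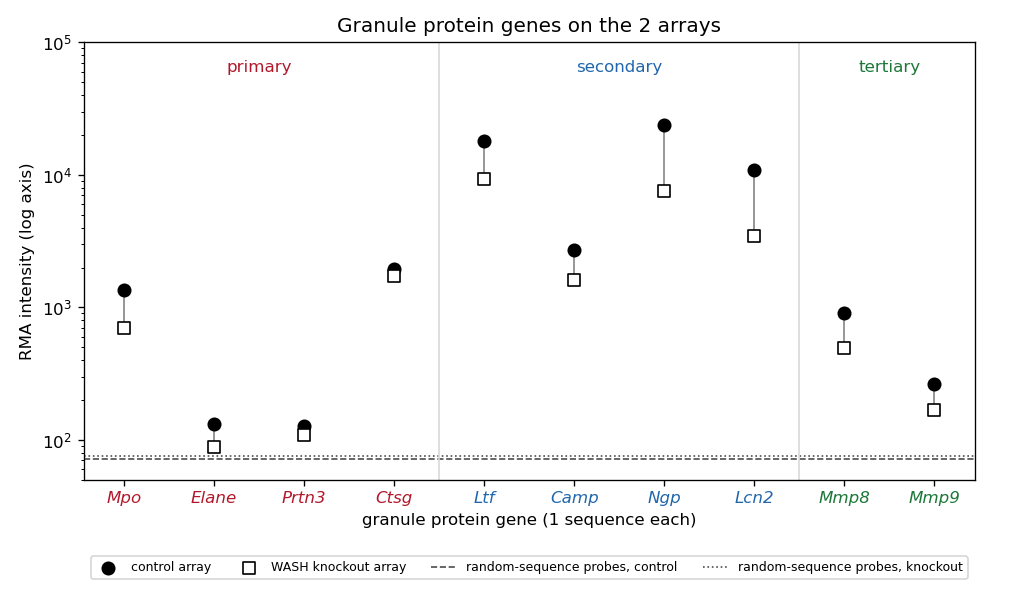
RMA intensity (log axis) of the 10 granule genes on the control array (filled circles) and the WASH knockout array (open squares), ordered by granule class, with the random-probe signals as horizontal lines. Every square lies below its circle, the longest drops are those of Ngp (23754 to 7586) and Lcn2 (10846 to 3448), and Elane and Prtn3 sit just above those lines.

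The classes overlapped in the size of their differences. The primary genes ranged from -0.94 to -0.18, the secondary genes from -1.65 to -0.76 and the tertiary genes from -0.87 to -0.67. Mpo differed about as much as Ltf (both -0.94) and more than Camp, so the order of the class medians follows mainly from Lcn2 and Ngp on one side and from Ctsg, Prtn3 and Elane on the other. The genes of a class share the same 2 arrays and are not replicates, and the order of the classes was not tested.

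Signal strength was set beside these differences. Of the 2192 genes above percentile 95 of at least 1 array, 8.76% were at least 2-fold lower, 4.52% at least 2-fold higher and 50.5% lower by any amount, with a median difference of -0.01. Of the members, Ctsg and the 4 secondary genes were this bright on both arrays, with differences from -1.65 to -0.18, of which those of Ngp and Lcn2 passed 2-fold. Mpo was this bright on the control array alone, a choice that favours a lower value in the knockout. No member had another sequence on the array that could be compared with it. In other genes above that percentile, 212 pairs of sequences of 1 gene gave a spread of 0.47 (log2 SD) for a single sequence, which covers probe noise and transcript variants but no difference between animals. Ctsg differed by less than this spread, Camp by more, and Ngp and Lcn2 by more than 3 times as much.

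**Figure D2:**
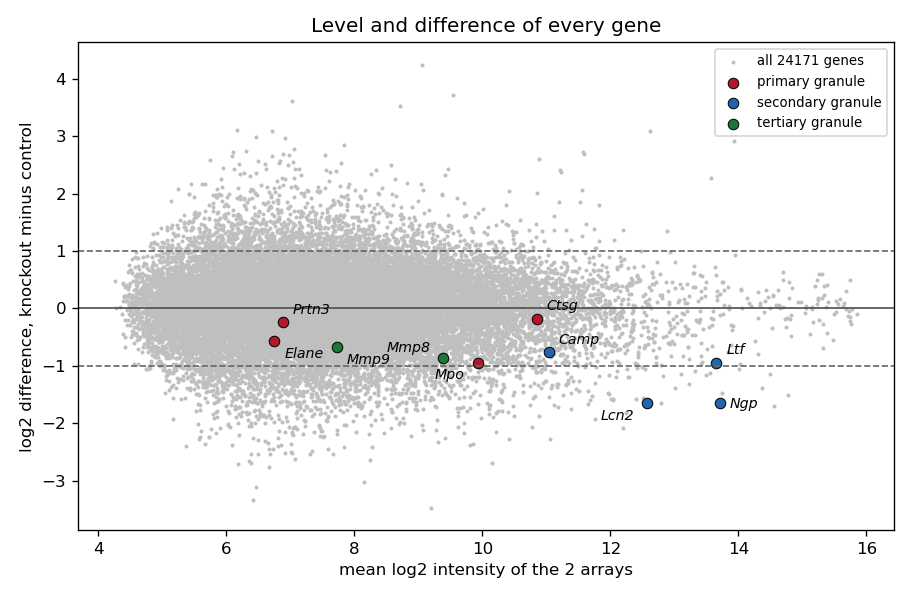
Log2 difference (knockout minus control) against mean log2 intensity for all 24171 named genes (grey), with the granule members coloured by class and dashed lines at 2-fold. The 10 members lie below the zero line over the whole range of intensity, and Ngp and Lcn2 lie below the lower dashed line among the brightest genes.

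The promoters of the members were read because the genes were lower together. Their windows are the 250 bases before the RefSeq start (build GRCm38.p6, which is not the build of the array files); 9 of the 10 members had one, and Mmp9 had none. The windows of Ngp (chr9:110419558-110419807, plus strand), Lcn2 (chr2:32387740-32387989, minus strand), Ltf (chr9:111019042-111019291, plus strand), Mpo (chr11:87793534-87793783, plus strand) and Ctsg (chr14:56102575-56102824, minus strand) are printed 5′ to 3′ along the gene, as examples of the secondary and primary classes. Ltf and Mpo differed about equally (both -0.94). Of the windows not printed, that of the secondary gene Camp held no match to the motifs marked. Capitals mark matches on either strand to TTNNGNAA, a form of the site of C/EBP factors, or to GAGGAA, a core of the PU.1 site.
Ngp: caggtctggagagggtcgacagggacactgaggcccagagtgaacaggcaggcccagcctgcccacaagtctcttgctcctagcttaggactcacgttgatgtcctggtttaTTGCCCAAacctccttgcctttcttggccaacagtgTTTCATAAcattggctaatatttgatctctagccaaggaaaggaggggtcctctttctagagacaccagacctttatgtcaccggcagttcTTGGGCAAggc
Lcn2: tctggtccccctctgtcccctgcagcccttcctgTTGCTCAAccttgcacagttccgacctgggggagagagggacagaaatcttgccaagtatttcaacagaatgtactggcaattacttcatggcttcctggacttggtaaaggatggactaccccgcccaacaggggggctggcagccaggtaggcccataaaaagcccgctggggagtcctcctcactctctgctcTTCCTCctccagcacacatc
Ltf: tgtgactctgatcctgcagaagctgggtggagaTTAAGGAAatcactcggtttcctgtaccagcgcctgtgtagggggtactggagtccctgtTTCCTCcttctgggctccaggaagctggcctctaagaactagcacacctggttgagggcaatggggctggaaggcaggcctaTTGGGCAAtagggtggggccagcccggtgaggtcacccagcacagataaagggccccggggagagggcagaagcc
Mpo: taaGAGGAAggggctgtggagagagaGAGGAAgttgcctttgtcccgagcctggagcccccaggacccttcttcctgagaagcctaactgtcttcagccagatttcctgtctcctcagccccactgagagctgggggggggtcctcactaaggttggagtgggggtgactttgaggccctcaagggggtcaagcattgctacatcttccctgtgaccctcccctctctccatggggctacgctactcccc
Ctsg: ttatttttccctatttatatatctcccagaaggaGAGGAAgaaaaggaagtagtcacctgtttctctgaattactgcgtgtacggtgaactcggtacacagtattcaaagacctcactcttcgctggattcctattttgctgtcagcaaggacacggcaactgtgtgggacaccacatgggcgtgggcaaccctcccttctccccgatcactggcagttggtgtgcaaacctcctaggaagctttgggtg

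C/EBP factors and PU.1 are the transcription factors that drive granulocyte genes. The letters TTNNGNAA were in 4 of 9 member windows, against 36.8% of all 32851 promoter windows. These were the windows of 3 of 4 secondary genes (Ngp, Ltf and Lcn2) and of Mmp8, and none of the 4 primary genes had a match. With so few windows per class, the split by class was not tested. The Ngp window held 3 matches, the first bases of which lie at -138, -102 and -11 from the start, and the Ltf window held 2, at -217 and -75. The same 8 letters, TTGGGCAA, form the match at -11 in Ngp and at -75 in Ltf. The letters GAGGAA were in all 4 primary windows, in those of Ltf, Lcn2 and Mmp8, and in 23.3% of all windows. The Mpo window held 2 of them, at -247 and -224, and the Elane and Prtn3 windows 1 each, at -85 and -95.

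Motifs of other granulocyte factors were searched as well. The MYB cores AACGG or AACTG were in 7 of 9 member windows, against 48.6% of all windows. AACGG alone was in 2 of 9 member windows, those of Elane and Prtn3, at -50 and -55, and in 14.5% of all windows. The GFI1 letters AAATCAC were in Ltf and Mmp8, and in 2.75% of all windows. The RUNX core TGTGGT and the letters TATAAA were in Ctsg alone among the members, and in 14.0% and 12.4% of all windows. The GFI1 match in Ltf shared 2 bases with a C/EBP match, and a MYB match in Mmp8 shared 1. The Camp window held none of the 7 motifs, which says nothing about which factors bind there. These are matches of letters, searched on both strands, and not measured binding.

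Further genes of granule biology were read from a list of 99 genes, 88 of which were measured and 70 detected. Of the 70, 43 were lower and 27 higher on the knockout array; 18 were at least 2-fold lower, against 7.29% of all detected genes. The 5 at least 2-fold higher, against 6.41% of all detected genes, were Fcna, Cfp, Spi1, Csf1r and Serpina1a. Their median was -0.35, less than that of the members. Without the filter on dim genes the counts were 20 and 6 of 88 and the median was -0.28. A gene below was represented by its brightest sequence.

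Other primary granule genes were mostly lower. Of 10 measured genes, all detected, 7 were lower and 4 at least 2-fold lower, with a median of -0.81. The lysozyme gene Lyz1 went from 3078 to 959 (-1.68), and its close copy Lyz2 from 6024 to 3202 (-0.91); probes for such copies may share signal. The granule membrane gene Cd63 went from 1904 to 609 (-1.64). Ctsc, whose product cathepsin C activates the serine proteases of these granules, went from 1443 to 666 (-1.11), and both of its sequences were lower. The beta-glucuronidase gene Gusb differed by -1.34 with its brightest sequence, but by -0.76 over the mean of its 4 sequences, of which 1 was detected. Bpi, an antibacterial protein gene, was at 244 and 321 (0.40).

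Other secondary granule genes had a median of -0.97 over 9 detected of 13 measured, with 8 lower and 4 at least 2-fold lower. Cybb, the catalytic subunit of the NADPH oxidase, went from 1669 to 418 (-2.00), and its 3 sequences were all lower, by -2.00 to -1.58. The chitinase-like gene Chil3 went from 2021 to 597 (-1.76). Slpi, the leukocyte protease inhibitor kept in secondary granules, went from 10029 to 3395 (-1.56), a drop close in size to that of Lcn2. Ceacam1, an adhesion receptor gene, differed by -1.67 with its brightest sequence, but 3 of its 5 sequences were lower and the mean over the 5 was -0.47. Its 3 detected sequences were all lower.

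Genes listed under the tertiary granule and under the secretory vesicle did not share one direction. The other genes listed as tertiary had a median of 0.09 over 7 detected genes. Of these, Fcnb (ficolin B) was lower, from 435 to 127 (-1.77), and Fcna (ficolin A) higher, from 168 to 717 (2.10). Cfp, the gene of the complement factor properdin, was also higher, from 175 to 445 (1.35). Whether the products of Fcna and Cfp are carried in tertiary granules was not tested here. Secretory vesicle and membrane genes had a median of 0.44 over 9 detected genes, which turned to -0.31 with the mean of each gene's sequences. The integrin chain gene Itgb2 went from 209 to 79.6 (-1.39), which left it at 1.05 times the random-probe signal in the knockout. Anpep, an aminopeptidase gene, did not exceed the random-probe signal in the knockout and was at least 2.41-fold lower. Its 2 sequences differed in direction (-1.44 and 1.06), and the second was not detected.

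Genes that sort and release granules had a median of -0.71 over 9 detected genes, and -0.25 with the mean of each gene's sequences. Lyst, the lysosomal trafficking regulator, went from 1874 to 856 (-1.13) with its brightest sequence, while 1 of its 3 sequences was lower. Ap3b1, an adaptor subunit for transport to granules, did not exceed the random-probe signal in the knockout and was at least 2.16-fold lower. Srgn, the gene of the proteoglycan serglycin that packs granule proteases, was at 324 and 184 (-0.82).

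The detected regulators of granulocyte genes centred near zero. Their median was 0.10 over 10 detected genes of 12 measured, and none of the 10 was 2-fold lower with its brightest sequence. The genes left out as not detected were both lower. Csf3r was at 132 and 61.1 (-1.12, both sequences lower), and Id1 differed by -0.90. Each was below the random-probe signal in the knockout. The median turned to -0.15 with the mean of each gene's sequences and to -0.03 with the authors' series table. Cebpe, the factor of secondary granule genes, was at 158 and 162 (0.03), and Cebpa, which acts earlier in the lineage, at 725 and 697 (-0.06), while its other sequence differed by -1.69. Gfi1, a repressor needed for neutrophil maturation, was at 400 and 331 (-0.27). Spi1, which encodes PU.1, was higher, from 77.0 to 196 (1.35), but stood at just 1.08 times the random-probe signal in the control. Csf1r, the receptor of the macrophage growth factor, was at 248 and 563 (1.19), and at 0.30 over the mean of its 3 sequences. Cebpb was not analysed here.

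Inhibitors of the granule proteases were mostly lower. Of 11 detected genes of 14 measured, 8 were lower and 5 at least 2-fold lower, with a median of -0.63 (-1.10 with each gene's dimmest sequence). Serpinb1c and Serpinb1a differed by more than any member. Serpinb1c went from 2088 to 408 (-2.35) and Serpinb1a, an inhibitor of elastase, proteinase 3 and cathepsin G, from 3582 to 859 (-2.06), with both of its sequences lower. These serpins are near-identical neighbours whose annotated spans overlap, so their signals may not be separate. Timp1, an inhibitor of matrix metalloproteinases, was at 218 and 88.3 (-1.30). Cst3, the cystatin C gene, was at 1195 and 540 (-1.15). Serpina1a was higher, from 138 to 358 (1.38), and at 0.78 over the mean of its sequences.

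Related proteases and locus neighbours included Gzmb, a granzyme gene at the locus of Ctsg, which went from 756 to 121 (-2.64) and was the only one of 6 detected genes to pass 2-fold. The mast cell protease gene Mcpt8, which lies 14.6 kb from Ctsg, was at 402 and 210 (-0.94), although Ctsg itself differed by only -0.18. The median of this list was -0.63, and -1.40 with the dimmest sequence of each gene.

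**Figure D3:**
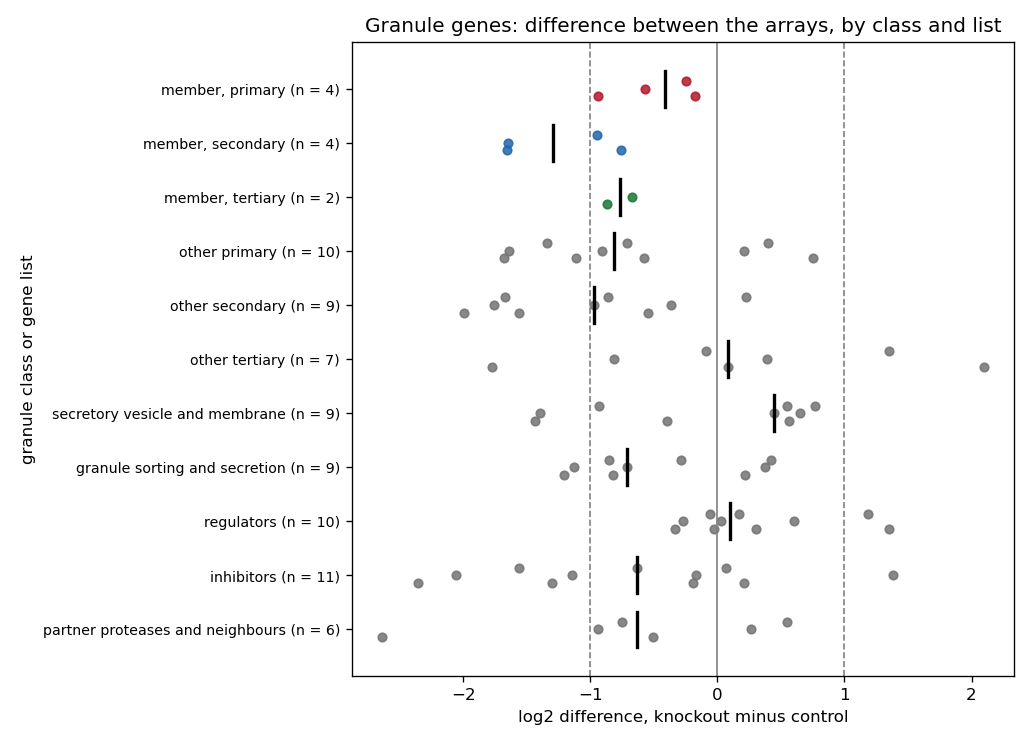
Log2 difference (knockout minus control) of the 10 granule members by class (coloured) and of the detected genes in 8 lists of granule biology (grey), 1 point per gene, with the median as a black bar and dashed lines at 2-fold. Members and the other primary and secondary genes lie mostly left of zero (medians -0.81 and -0.97 for the other genes), while the regulators centre near zero (0.10, and -0.15 with the mean of each gene's sequences).

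Position was examined because several members lie close together. Camp, Ngp and Ltf lie in a row on chromosome 9, 570 kb and 597 kb apart, and Prtn3 and Elane are adjacent on chromosome 10. Within 100 kb of the members lay 63 other named genes, 47 of them detected, with a median difference of -0.09. Of the 47, 26 were lower, against 48.3% of all detected genes. Only R3hdm4 (-1.12) was at least 2-fold lower, against 7.29% of all detected genes. At least 2-fold higher were 2 (Fstl3, 1.10, and 1110008P14Rik), against 6.41%. Fstl3 was near the random-probe signal in the control, at 76.3. Lpo, the peroxidase gene 2.02 kb from Mpo, was at 284 and 220 (-0.37). Beside Camp, Nme6 differed by -0.56 and Cdc25a by -0.89; beside Ltf, Lrrfip2 differed by -0.94 and Rtp3 by -0.69. Cdc25a and Lrrfip2 each had another sequence that was higher (0.25 and 0.14). Beside Ngp, Kif9 was at 384 and 698 (0.86), and beside Lcn2, 1110008P14Rik was at 106 and 218 (1.04). Over all members the neighbours varied around zero, but all 4 detected neighbours of Ltf were lower with their brightest sequences (median -0.55), as were 2 of 3 beside Camp (median -0.56). Of those beside Ltf, Ccrl2 differed by only -0.06, and its other sequence was higher (0.63). Gm10030, at 138 and 104, was just above the array median of 137 in the control alone.

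**Figure D4:**
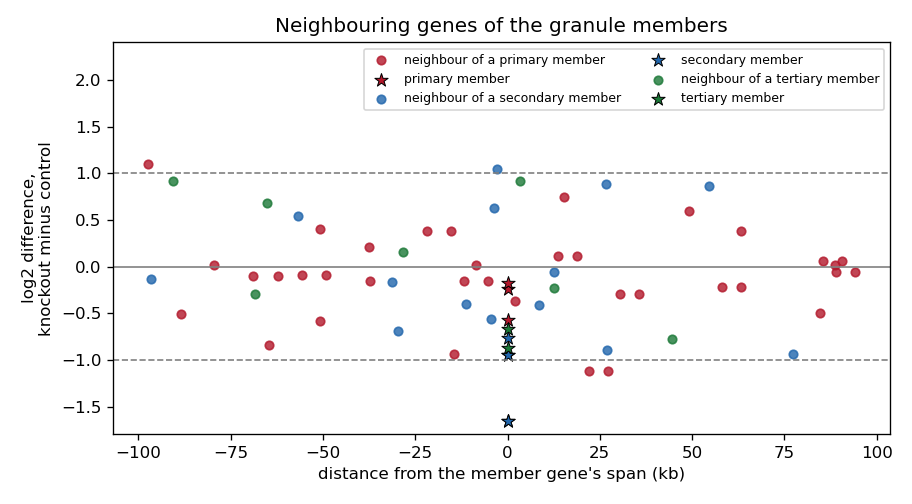
Log2 difference (knockout minus control) of detected genes within 100 kb of a member (circles, coloured by the member's class) and of the members (stars), against the distance in kb from the member's span, with dashed lines at 2-fold. A gene near both Prtn3 and Elane is drawn for each. The neighbours scatter around zero as a whole (median -0.09), those of Ltf are all lower with their brightest sequences, and the stars lie between -1.65 and -0.18.

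Markers of cell types were set beside the members, since the sort was for stem cells and granule genes belong to later cells. Of the sort and stem cell markers, Kit was at 398 and 489 (2 of its 4 sequences were lower), Ly6a (Sca-1) at 835 and 596 and Slamf1 at 147 and 123. Procr, Fgd5 and Tek did not exceed the random-probe signal in either sample. The list of 13 stem cell and progenitor genes mixes markers of LT-HSC with markers of progenitors, so its median does not follow LT-HSC alone. That median was -0.26 over 9 detected genes, 6 of them lower and 3 higher. Mecom (-1.10, with 4 of 6 sequences lower) and Cd48 (-1.58, below the random-probe signal in the knockout) were lower by over 2-fold. Hoxa9, the brightest, was at 2025 and 1161 (-0.80), while Cd34 (0.57) and Meis1 (0.96) were higher. The neutrophil marker list, which includes Mmp8 and Mmp9, had a median of -0.52 over 11 detected genes. Without these members, as for the next list an alternative added after seeing the data, it had a median of -0.38 over 9 detected of 10 measured, 7 of them lower and 2 at least 2-fold lower. Those 2 were the calprotectin genes S100a8, from 47334 to 16696 (-1.50), and S100a9, from 34133 to 13043 (-1.39). The summed intensity of the 10 was 84840 in the control and 32754 in the knockout, most of it from S100a8 and S100a9; the other 8 summed to 3372 and 3015. Ly6g, the surface marker that defines neutrophils, was at 788 and 605 (-0.38), and Retnlg, another gene of mature neutrophils, at 543 and 681 (0.33) with its brighter sequence, while the other differed by -1.49.

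Granules are made in promyelocytes and myelocytes. The list of myelocyte and promyelocyte markers, which includes 4 members, had a median of -0.94 over 7 detected of 9 measured. Without the members it had a median of -1.47 over 5 genes, 4 of them lower and 3 at least 2-fold lower, with a summed intensity of 4342 in the control and 1568 in the knockout. Besides Chil3 and Fcnb, given above, Gstm1 went from 1537 to 555 (-1.47). Mast cell, basophil and eosinophil markers had a median of -0.89 over 4 detected of 6 measured, all 4 lower, with the eosinophil granule gene Prg2 going from 1484 to 702 (-1.08). Their summed intensity was 3103 and 1795. Monocyte markers had a median of 0.25 over 7 detected of 8 measured, with 3 lower and 4 higher. Of the higher genes, F13a1 and Csf1r each had 2 of 3 sequences lower. The summed intensity of the monocyte markers was 9041 and 6362, and 3017 and 3161 without Lyz2, which is also among the other primary granule genes.

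Erythroid markers went the other way. All 10 were detected and higher on the knockout array, 8 of them at least 2-fold, with a median of 1.88, and their summed intensity went from 10000 to 56439, or from 3278 to 7774 without the globin genes Hbb-b1 and Hba-a1. These globin genes went from 5699 to 43218 (2.92) and from 1023 to 5447 (2.41). Car1 (37.2 and 183) and Klf1 (69.6 and 192) did not exceed the random-probe signal in the control. Both passed as detected through the knockout array alone, a choice that favours a higher value there. Macrophage markers had a median of 0.71 over 4 detected of 6 measured, with Cd5l at 220 and 500 (1.18) and C1qa at 138 and 311 (1.17). The brightest, Adgre1, was at 6543 and 7056 (0.11), and C1qc differed by 0.24. C1qb (-0.58) and Vcam1 (-0.34) were lower but not detected. Megakaryocyte markers (-0.57 over 4 genes), B lymphoid markers (0.40 over 5) and T and NK lymphoid markers (0.11 over 3) were mixed in direction, with Ppbp at -1.40, Pf4 at -1.19 and Klrb1c at 1.28 with the brightest of 3 sequences, which ranged from -1.24 to 1.28. The part of these cell types in the lower granule signal was not tested.

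**Figure D5:**
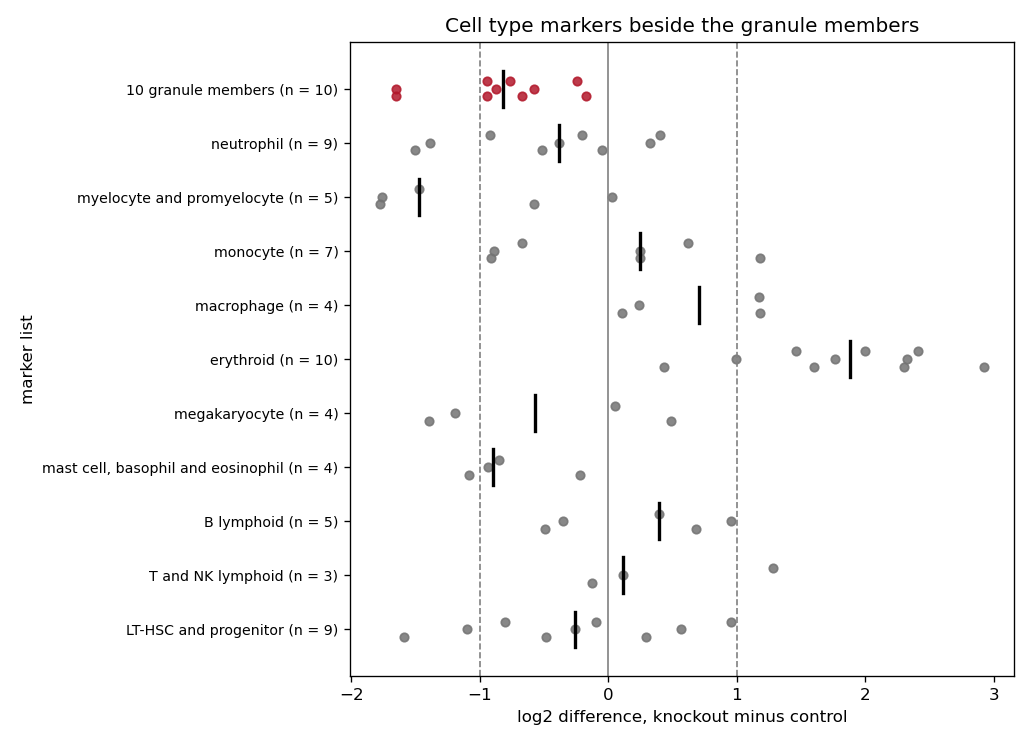
Log2 difference (knockout minus control) of the 10 granule members (red) and of detected cell type markers other than the members (grey), 1 point per gene, with list medians as black bars and dashed lines at 2-fold. The members, the myelocyte and promyelocyte markers (median -1.47 without the members, -0.94 with them) and the mast cell, basophil and eosinophil markers (-0.89) lie left of zero, and the erythroid markers (1.88) right of it.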

How the data were processed

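LT-HSC RNA of 1 control and 1 WASH knockout sample was labelled with Cy3 and read on NimbleGen arrays, per the labels. The authors deposited 1 intensity per sequence, from RMA (background correction, normalization between arrays and summary over probes) per the submitters' processing notes, which name no version. Of the sequences, 44155 of 44170 had 3 probes and all were placed on build MM9, per the file headers. The authors' series table repeats these values for 34218 sequences, those above 50 on both arrays.

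Differences are log2(knockout) minus log2(control) of the deposited intensities, with no further scaling. Names came from the files, updated through RefSeq (21583 gene identifiers matched); 2284 sequences had none. A gene was represented by its sequence with the highest mean log2 value. No test was possible with 1 array per genotype, so differences were counted at 2-fold; the number of arrays limits the precision. Every member, and from each granule list up to 4 detected genes at 2-fold, were named by rule; others are examples chosen after their values were seen. The members and lists were chosen with earlier results of these data known. The steps were tested on simulated data with less noise than the spread between sequences of 1 gene on these arrays. That test checks the steps and not the 2-fold counts. Python 3.11.15, pandas 2.3.3, numpy 2.4.6 and statsmodels 0.14.6 (loess) were used. Genes of the lists that the arrays used here do not name were not analysed here.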

Additional observations from a re-analysis of the deposited data

How the results depend on the processing

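No paired analysis was possible because there was 1 control and 1 knockout array. Each of the 10 members was lower on the knockout array in all 4 alternatives that can change its value (quantile normalization, median centring, loess with span 0.3, an offset of 50 before the log). The offset cannot change the direction, and median centring moved every gene by the same small amount, so neither checks the direction. Ngp ranged from -1.65 to -1.56, Lcn2 from -1.66 to -1.54 and Prtn3 from -0.25 to -0.17. The series table repeats the members' values, and with 1 sequence each their mean and dimmest sequence are the same value. With no replicates, a value was taken as unchanged when it kept its sign and lay within 1.5 times. At a size of 1.5-fold, 7 members and 30 of the other granule genes were lower and 9 of the latter higher; a size of 3-fold left 9 of these lower and 1 higher. With a mean over sequences, 3 of the other granule genes were at least 2-fold higher, and with the dimmest sequence their median was -0.63. The secretory vesicle list turned from 0.44 to -0.31 with the mean and to -0.40 with the dimmest sequence; the median of the other tertiary genes was 0.24 and that of the regulators 0.03 with the dimmest sequence. The causes were not tested. Over all detected genes, the counts lower and higher were 735 and 573 with the offset, 2972 and 3004 for a size of 1.5-fold, 280 and 242 for 3-fold, and 192 and 99 for genes above percentile 95; fewer genes are counted by construction where size or filter is stricter. Added after seeing the data, the median over the 8 detected members was -0.91, and the neutrophil and the myelocyte and promyelocyte lists had medians of -0.38 and -1.47 without the members, against -0.52 and -0.94 as planned. Elane and Prtn3 are limited by signal over background.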
